A study of Mus musculus with 6 samples.

Results

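Small pre-B cells with Rag1 were selected from single-cell RNA sequencing of sorted CD45+ cells of mice that had antigen-induced arthritis. The cells came from enzymatic digestion of isolated joints, and the study names them synovial. A cell was selected when it held at least 1 unique molecular identifier (UMI, the tag that marks a single captured RNA molecule) of Rag1, at least 1 of Vpreb3 and at least 2 of Cd79a and Cd79b together. It also had to hold fewer than 3 UMIs of Vpreb1, Igll1 and Dntt together and fewer than 2 of Mki67 and Top2a together. This rule selected 1441 of 32953 cells, which is 4.37% of all cells (Wilson 95% confidence interval 4.16% to 4.60%) and 22.3% of the 6466 cells with at least 2 UMIs of Cd79a and Cd79b. Intervals cover counting error only. The share of all cells was 2.90% with at least 2 Rag1 UMIs. It was 8.12% without cells with at least 10 UMIs of the neutrophil genes S100a8 and S100a9, a setting that also shrinks the total. The levels of the genes of the rule chose the cells and are given below only as a description.

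All mice were C57BL/6 males, 8 weeks old at purchase. They were immunized with 10 μg of methylated BSA in complete Freund's adjuvant, were challenged on day 21 with 100 μg of methylated BSA in the knee, and had their joints taken 3 days after the challenge. From day 21, mice received PBS as vehicle (2 samples) or 300 μg of PEPITEM, an immunoregulatory peptide (4 samples). Whether a sample held the cells of 1 mouse or of pooled mice is not given in the sources used here. The table pools the 6 samples, and its barcodes carry a library number from 1 to 6 that no source used here links to a sample. Vehicle and PEPITEM were therefore not compared, and no test was run. Levels are pooled over all libraries, and a range beside a level runs from the lowest to the highest of them. Each library held between 47273569 and 123367661 UMIs.

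In mice, B cells normally arise in the bone marrow. A pro-B cell joins the gene segments of its heavy chain with the RAG1 and RAG2 recombinase and makes the surrogate light chain from Vpreb1 and Igll1, which pairs with the new heavy chain as the pre-B cell receptor. Signals of this receptor and of the IL-7 receptor drive a burst of division, after which the cell leaves the cycle, stops making surrogate light chain and turns RAG on again to join the kappa or lambda light chain genes. A cell with a working light chain becomes an immature B cell with surface IgM, and a mature B cell carries CD20, the product of Ms4a1, and MHC class II.

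The start regions of Rag1 and Reln are shown because these genes led the population by fold over all other cells. They are the 250 bases before the RefSeq start on GRCm38.p6, at chr2:101649533-101649782 for Rag1 and chr5:22344706-22344955 for Reln, both read 5′ to 3′ on the minus strand. TGTTTAC, a FOXO pattern, was searched as well. Capitals mark matches on either strand to CAGNTG (the E-box read by E proteins), CCCNNGGG (a core read by EBF1) or CCAAT (read by NF-Y).
Rag1: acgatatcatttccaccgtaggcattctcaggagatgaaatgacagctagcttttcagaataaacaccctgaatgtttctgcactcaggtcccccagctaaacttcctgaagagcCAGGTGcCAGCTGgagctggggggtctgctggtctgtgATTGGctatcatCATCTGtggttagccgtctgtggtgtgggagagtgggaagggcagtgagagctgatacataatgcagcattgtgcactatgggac
Reln: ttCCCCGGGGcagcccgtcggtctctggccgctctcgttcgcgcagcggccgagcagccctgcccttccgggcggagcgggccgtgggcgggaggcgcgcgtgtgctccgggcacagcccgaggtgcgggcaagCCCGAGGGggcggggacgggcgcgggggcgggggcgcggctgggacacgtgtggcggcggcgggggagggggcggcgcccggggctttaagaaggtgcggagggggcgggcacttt
The Rag1 region held CAGNTG 3 times, 135, 128 and 85 bases before the start, and CCAAT 1 time, 97 bases before it. The Reln region held CCCNNGGG 2 times, 248 and 116 bases before the start, and none of the other patterns. Neither region held TGTTTAC, and the Rag2 region of the same length held none of the 4 patterns. Among 32851 RefSeq start regions of this length, CAGNTG was found in 44.8%, CCCNNGGG in 11.8%, CCAAT in 33.8% and TGTTTAC in 3.17%. Of 23 leading and marker genes, 19 matched a region by symbol, and of their 21 regions 7, 3, 8 and 0 held these patterns. A match is a run of letters and not a measured binding site.

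4 other populations of cells with at least 2 UMIs of Cd79a and Cd79b were defined with the genes of the rule and, for the Ms4a1 B cells, with Ms4a1. No cell is in more than 1 of them. The 478 surrogate light chain cells had at least 3 UMIs of Vpreb1, Igll1 and Dntt and fewer than 2 of Mki67 and Top2a. The 635 cycling Vpreb3 cells had at least 2 UMIs of Mki67 and Top2a and fewer than 3 of the surrogate light chain group. The 2253 Vpreb3 cells without Rag1 differed from the small pre-B cells only in having no Rag1 UMI. The 553 Ms4a1 B cells had at least 2 UMIs of Ms4a1, none of Vpreb3 or Rag1 and few of the other groups. These names stand for the rules and not for sorted cells, and 1106 Cd79 cells were in none of the populations.

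The small pre-B cells were present in all libraries, with 114, 579, 90, 86, 347 and 225 cells in libraries 1 to 6. Library 2 alone held 40.2% of them. Their share of all cells was lowest in library 4, at 2.15%, had a median of 3.25% over the libraries and was highest in library 2, at 9.97%. Without library 2 the pooled share was 3.18%. As a share of the Cd79 cells the spread was narrower, from 16.0% in library 3 to 26.2% in library 2, with 25.9% in library 5. The Cd79 cells themselves made up 12.5% to 38.1% of a library. For each cycling Vpreb3 cell there were 1.79 to 2.52 small pre-B cells in a library, and for each surrogate light chain cell 1.91 to 4.50. The same barcode sequence occurred in more than 1 library for 276 cells, of which 12 were small pre-B cells, and no sequence was shared by 2 small pre-B cells.

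**Figure D1:**
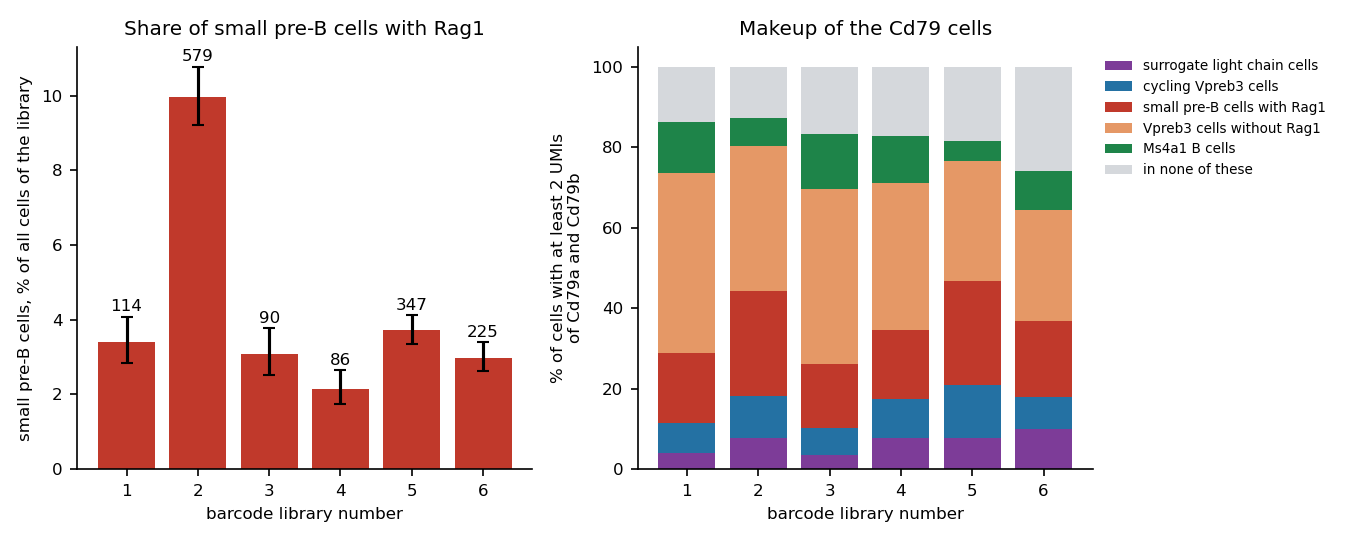
Left, small pre-B cells with Rag1 as a percentage of all cells of each barcode library, with Wilson 95% intervals. Right, makeup of the cells with at least 2 UMIs of Cd79a and Cd79b in each library. Library 2 stands at 9.97% and the other 5 libraries between 2.15% and 3.71% of all cells.

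The rule had a sharp edge at Rag1 and wide margins elsewhere. Of the small pre-B cells, 485 (33.7%) held a single Rag1 UMI, and 2253 cells failed the rule only because they held none. By contrast, 39 cells sat at the limit of 1 Vpreb3 UMI and 5 at the limit of 2 Cd79 UMIs. Just inside the limits on the other genes were 10 cells with 2 UMIs of the surrogate light chain group and 61 with 1 UMI of Mki67 and Top2a, and just outside were 15 and 9 cells. The Rag1 level was 463 CPM (UMIs of the gene per 1000000 UMIs of the population), and 502, 486, 328, 349, 496 and 446 in libraries 1 to 6. Cells rich in S100a8 and S100a9 were 14851 cells with at least 50 UMIs of these neutrophil genes together. Small pre-B cells and the other populations were left out of this set. In the set, 0.141% held a Rag1 UMI at a median depth of 11210 UMIs per cell, against 5116 in the small pre-B cells. Leaving out the populations took away cells with Rag1, so this share is not a background rate of Rag1.

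Of the markers given for the cells, Reln, Cecr2, Akap12 and Bach2 ranked 1, 6, 14 and 23 by fold over all other cells among 6195 genes. Rag1, which the rule used, ranked 2. The markers were chosen with earlier results of these data known, so their ranks describe the cells and do not check the name. Cell size was not measured, and "small" rests here on RNA content. The small pre-B cells had a median of 5116 UMIs per cell (quartiles 4153 and 6419, library medians 4083 to 5821) and 2062 genes, against 3759 genes in cycling cells, 2718.5 in surrogate light chain cells, 2197 in Ms4a1 B cells and 2194 in Vpreb3 cells without Rag1. Cycling Vpreb3 cells held 2.49 times as many UMIs (12725), surrogate light chain cells 7093 and Ms4a1 B cells 5989, and each of these medians was above that of the small pre-B cells in 6 of 6 libraries. These gaps are not independent of the rule, since upper limits on raw UMIs favor shallow cells and the minimums of the other populations favor deep ones. Vpreb3 cells without Rag1 were closest, with a median of 5575 UMIs. At a common depth of 3000 UMIs per cell, reached by drawing UMIs at random and leaving out 51 shallower small pre-B cells, 7 surrogate light chain cells, 1 cycling cell, 64 Vpreb3 cells without Rag1 and 10 Ms4a1 B cells, the small pre-B cells showed 1492 genes, the surrogate light chain cells 1572, the cycling cells 1589, the Vpreb3 cells without Rag1 1486 and the Ms4a1 B cells 1421. At equal depth the small pre-B cells thus remained below cycling and surrogate light chain cells, and stood above Ms4a1 B cells and level with Vpreb3 cells without Rag1.

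Reln (chr5:21884454-22344702 on GRCm38) encodes the secreted glycoprotein reelin, best known from the layering of the developing brain. Its level was 376 CPM in the small pre-B cells, and 319, 371, 446, 254, 338 and 483 in libraries 1 to 6, against 3.06 in all other cells. A Reln UMI was found in 32.6% of the small pre-B cells. It was found in 0.148% of the cells rich in S100a8 and S100a9 and outside the populations. In the other populations Reln stood at 60.7 CPM in Vpreb3 cells without Rag1, 17.1 in cycling Vpreb3 cells, 3.18 in surrogate light chain cells and 3.10 in Ms4a1 B cells, and none of their libraries reached the lowest library of the small pre-B cells. Reln was thus the gene with the largest fold, although most small pre-B cells showed no UMI of it.

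Cecr2 (chr6:120666369-120771190), which encodes a bromodomain subunit of chromatin remodelers, stood at 2318 CPM (2123 to 2412 in the libraries, median 2306) and was found in 98.8% of the small pre-B cells. Akap12 (chr10:4266380-4359470), which encodes a scaffold for protein kinases, stood at 1175 CPM (1029.8 to 1313, median 1196). Bach2 (chr4:32238804-32586108), which encodes a transcriptional repressor of the B lineage, stood at 10389 CPM (9548 to 12022, median 10156). These markers were not restricted to the small pre-B cells. Cycling Vpreb3 cells held 1211 CPM of Cecr2, 556 of Akap12 and 4737 of Bach2, and Ms4a1 B cells held 119, 52.3 and 1839. For each of these genes, the libraries of the small pre-B cells lay above those of the other 4 populations.

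With the genes of the rule left out, the other genes among the 20 with the largest fold over all other cells were Gm32569, Col25a1, Atp1b1, Col5a3, Sorcs2, Grip1, Fam189a1, Cacna1e, Cpm, Serinc5, Rbm24, Tmem132e, Irs1, Agbl1, Tmem163, Shank2 and Nuak1, from 41.1-fold for Gm32569 to 24.2-fold for Nuak1. Atp1b1, a subunit of the sodium pump, stood at 1252 CPM (1093 to 1335) against 34.1 in all other cells and was found in 95.8% of the small pre-B cells. Cacna1e, a calcium channel subunit, stood at 959 CPM (824 to 1147) against 31.1. The gene Cpm, which encodes carboxypeptidase M, stood at 1017 CPM (792 to 1095) against 34.4. Not all of these genes were highest in the small pre-B cells or stood apart from their nearest population. Gm32569, annotated as an antisense gene, was higher in surrogate light chain cells (371 CPM) than in the small pre-B cells (276). Agbl1 stood at 954 CPM in Vpreb3 cells without Rag1 and 994 in the small pre-B cells, with overlapping libraries.

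**Figure D2:**
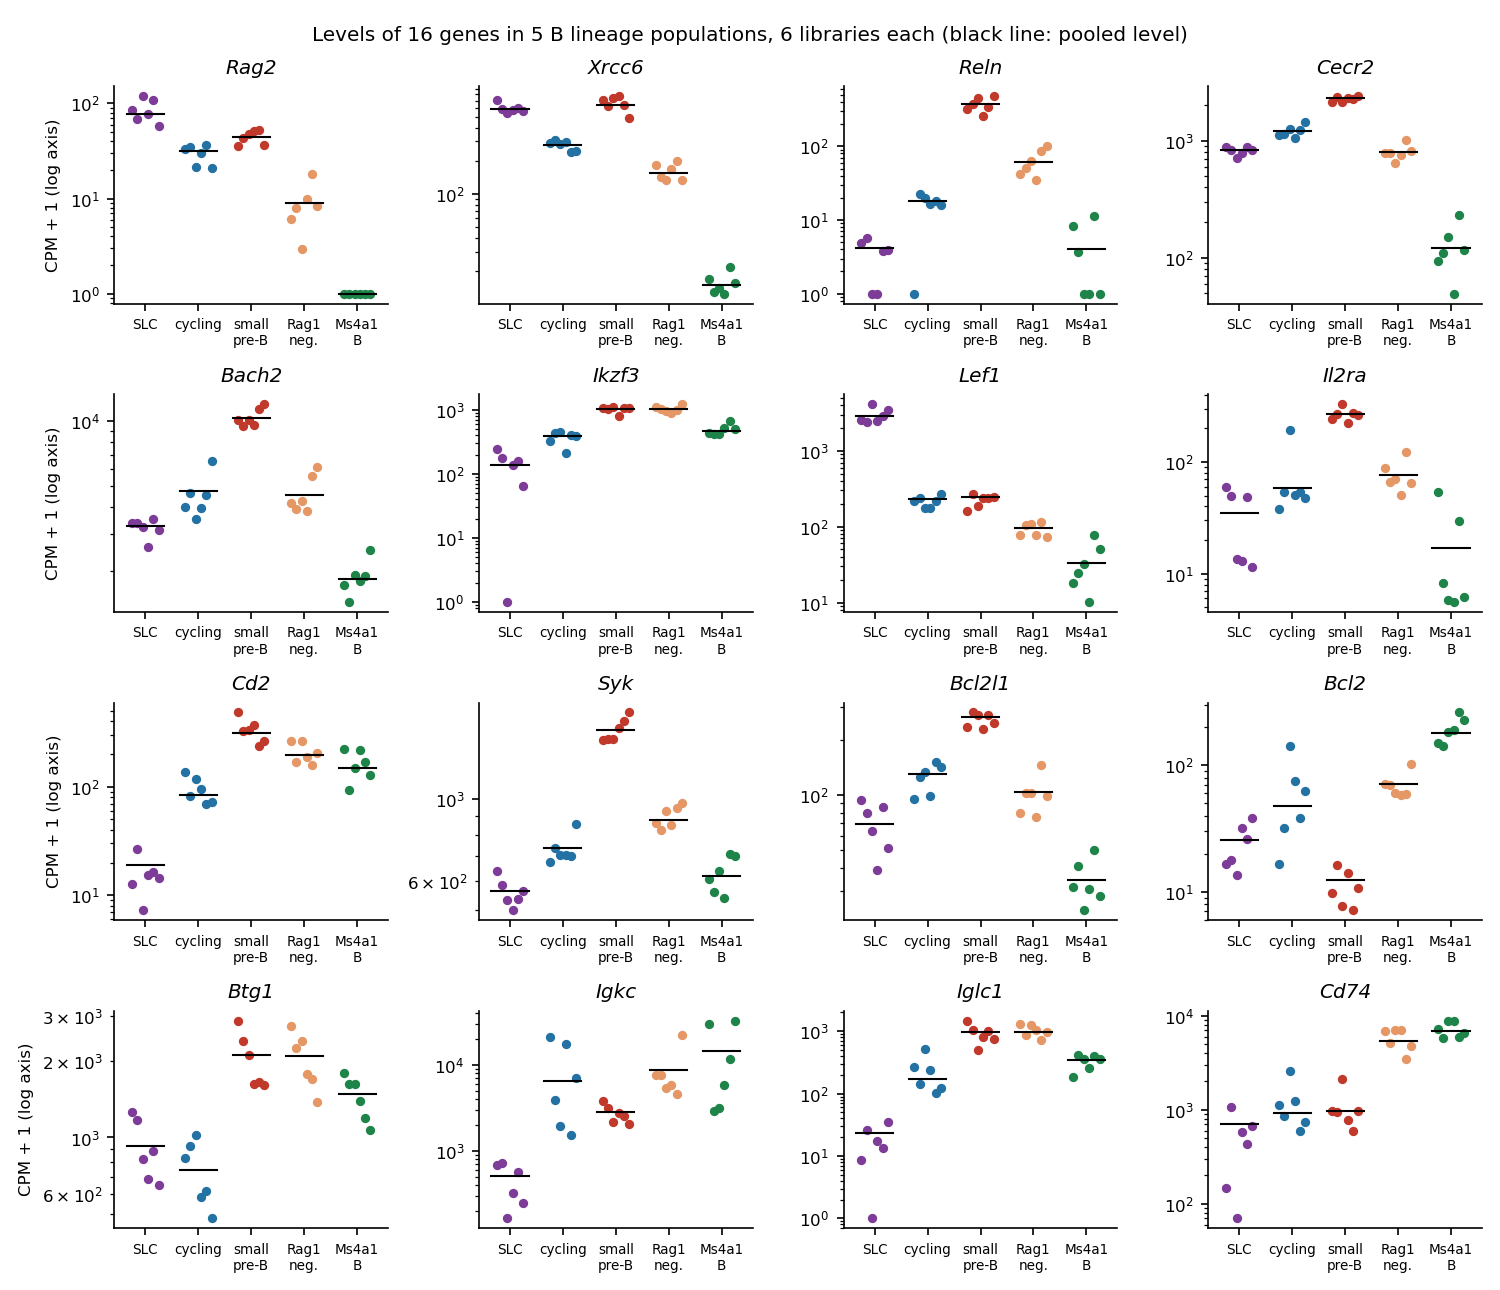
Level of 16 genes (CPM + 1, log axes) in surrogate light chain cells (SLC), cycling Vpreb3 cells, small pre-B cells with Rag1, Vpreb3 cells without Rag1 and Ms4a1 B cells. Each point is 1 of 6 libraries and the black line is the pooled level. Reln is highest in the small pre-B cells, at 376 CPM.

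Genes of V(D)J recombination come first, since RAG activity defines this stage. Rag2, the partner of RAG1, was not part of the rule. Its level was 42.9 CPM in the small pre-B cells, and 35.0, 41.9, 46.6, 50.9, 51.1 and 35.1 in libraries 1 to 6. Surrogate light chain cells held 76.1 CPM (57.5 to 119), cycling cells 30.8 (19.9 to 35.3) and Vpreb3 cells without Rag1 7.90 (1.97 to 17.2). The libraries of small pre-B and cycling cells overlapped narrowly, and those of the other populations did not overlap with the small pre-B cells. Ms4a1 B cells had 0 of 4839712 UMIs, which allows up to 0.620 CPM, so that Rag2 was at least 69.2-fold higher in the small pre-B cells, counting 3 UMIs over the population as the limit of a count of 0. Rag1 (chr2:101638282-101649501) overlaps the annotated gene B230118H07Rik (chr2:101560781-101649532) on the same strand, and their reads could not be told apart with certainty.

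Xrcc6, which encodes Ku70 of the DNA end joining machinery, stood at 635 CPM in the small pre-B cells (490.2 to 775, median 675) and at 590.0 in surrogate light chain cells. It was 2.27-fold lower in cycling cells (279 CPM), stood at 156 in Vpreb3 cells without Rag1 and was 42.2-fold lower in Ms4a1 B cells (14.1 CPM). Lig4, the ligase that seals the joined ends, was 17.9-fold higher in the small pre-B cells than in Ms4a1 B cells (50.3 against 1.86 CPM), and overlapped in its libraries with surrogate light chain and cycling cells. Prkdc, the catalytic subunit of DNA-PK, stood at 44.0 CPM in the small pre-B cells and at 39.4 to 56.0 in the other populations. Rag2, Xrcc6 and Lig4 thus set the small pre-B cells apart from Ms4a1 B cells, and Prkdc did not.

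The first comparison set the small pre-B cells against cycling Vpreb3 cells. A gene counted as higher or lower when its pooled level differed at least 2-fold after adding 1 CPM, reached 20 CPM on the higher side and differed in the same direction in each of the 6 libraries. Of 7028 genes, 1253 (17.8%) passed, 441 (6.27%) of them higher and 812 (11.6%) lower in the small pre-B cells. The genes of the rule separate all populations here, so the counts of genes and lists in this and the next comparisons describe the contrasts and support nothing.

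All 23 listed cell cycle genes outside the rule were lower in the small pre-B cells, with a median log2 difference of -4.19 against 0.05 over all genes tested. Pcna, the sliding clamp of DNA replication, stood at 31.4 CPM (24.5 to 44.1) against 238 (208 to 293). Stmn1, a microtubule regulator, stood at 48.7 CPM (26.3 to 58.0) against 1761 (1299.6 to 2066). The libraries of the populations did not overlap for either gene. The 10 genes with the lowest ratio were 2810417H13Rik, Nusap1, Neil3, Esco2, Pbk, Ccna2, Tpx2, Hist1h3c, Rrm2 and Ube2c. Ccna2, encoding cyclin A, had 7 UMIs in all small pre-B cells together (0.816 CPM) against 221 CPM. Hmgb1, Hmgb2 and H2afx, chromatin proteins listed with recombination, were lower as well, and Xrcc6 was the only higher one of 11 tested recombination genes (median 0.28).

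Of 15 listed genes of cycle arrest, 5 were higher in the small pre-B cells (Cdkn1b, Btg1, Btg2, Klf6 and Foxo3) and 2 were lower (Cdkn2c and Cdkn2d), with a median log2 difference of 0.45. As a mean of CPM per cell, 3 were higher and 4 lower (median 0.30). Btg1, which encodes an antiproliferative protein, stood at 2099.6 CPM (1599 to 2875) against 744 (479.9 to 1018). Cdkn1b, which encodes the inhibitor p27, stood at 205 CPM (170.4 to 257) against 100.2 (84.0 to 121), a 2.04-fold difference that lies close to the limit. Cdkn2c, the inhibitor p18, went the other way with 10.7 against 103 CPM. The listed inhibitors thus pointed in both directions.

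Among 25 tested transcription factors of the B lineage, 8 were higher (Ebf1, Foxo1, Ikzf3, Bach2, Spib, Sox4, Erg and Klf2) and none was lower, with a median of 0.65. Foxo1, a factor known to drive Rag1 and Rag2 transcription, stood at 958 CPM (686 to 1031) against 337 (273 to 426). Ikzf3, which encodes Aiolos, stood at 1039.9 CPM (786 to 1109.7) against 395 (213 to 448). Irf4, a factor of light chain gene activation, stood at 398 against 236 CPM and did not reach 2-fold. For Foxo1 and Ikzf3 the libraries did not overlap, and for Sox4, Erg and Klf2 they did.

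Of 12 tested receptor signaling genes outside the rule, the kinase genes Syk, Lyn and Blk were higher and none was lower, with a median of 0.76, and 1 was higher as a mean of CPM per cell (median 0.61). Syk stood at 1531 CPM (1439.8 to 1713) against 736 (675 to 853). Of 14 tested genes of the IL-7 receptor pathway and early surface proteins, 5 were higher (Jak1, Il2ra, Cd2, Bst1 and Ly6d) and Spn was lower, with a median of 0.72. Il2ra, which encodes the CD25 used to sort small pre-B cells, stood at 267 CPM (222 to 328) against 58.0 (36.6 to 190.5), and Il7r itself at 529 against 431. S1pr1 and Cnr2 were the 2 higher of 11 trafficking genes (median 0.22), Cd40 the 1 higher of 13 mature B cell genes (median 0.05), and none of 5 plasma cell genes passed (median 0.01). For the mature B cell genes the direction depended on the setting, with 0 higher and 4 lower as a mean of CPM per cell (median -0.04) and 1 higher and 2 lower without cells with at least 10 UMIs of S100a8 and S100a9 (median -0.04). The largest ratios were those of Reln, Col5a3, Gm32569, RP23-477O13.1, Scimp, Cacna1e, Kdm5b, Col27a1, Pde4c and Agbl1, from 20.8-fold for Reln to 7.45-fold for Agbl1.

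The second comparison set the small pre-B cells against surrogate light chain cells, which carry the surrogate light chain of the earlier stages. Of 7008 genes, 822 (11.7%) passed, 290 (4.14%) of them higher and 532 (7.59%) lower in the small pre-B cells. With TMM factors of edgeR, which moved the median log2 difference of all genes from -0.05 to 0.09, 378 genes were higher and 450 lower. All 6 tested immunoglobulin constant genes were higher in the small pre-B cells, with a median log2 difference of 3.17, and 6 of 7 with a median of 2.22 as a mean of CPM per cell. Ighm, the constant region of IgM, stood at 4256 CPM (3685 to 5376) against 1403 (854 to 2067). Igkc was 5.51-fold, Iglc1 42.2-fold, Iglc2 40.9-fold and Iglc3 14.6-fold higher. The light chain genes thus differed more than Ighm. The Iglc genes are near-identical copies, so that the split of UMIs between them is uncertain. Against cycling cells Iglc2 and Iglc3 were the 2 higher of 7 (median 0.68), and against Ms4a1 B cells Iglc1 and Iglc3 were higher and Ighd lower of 7 (median -0.31, with Igkc included). The direction of this last median depended on the setting, at 0.15 with 2 higher and 2 lower as a mean of CPM per cell, and -0.11 with 1 higher and 2 lower without cells with at least 10 UMIs of S100a8 and S100a9.

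Transcription factors differed in both directions here. Of 26, 6 were higher (Ikzf3, Irf4, Bach2, Spib, Pou2af1 and Id2) and 5 lower (Tcf4, Bach1, Lef1, Erg and Bcl11a), with a median of 0.28. Lef1, which encodes a factor of early B precursors, stood at 245 CPM (159 to 272) against 2841 (2414 to 4122), and Erg at 48.2 (21.6 to 61.6) against 956 (721 to 1328). Ikzf3 was 7.54-fold and Irf4 2.97-fold higher in the small pre-B cells. Ebf1, a factor that specifies the B lineage, stood at 12044 against 12784 CPM, with overlapping libraries. Lef1 and Erg thus went against Ikzf3 and Irf4. Genes of plasmacytoid dendritic cells moved with this comparison. All 8 were found in the surrogate light chain cells, with a sum of 559 CPM (34.8, 673, 56.4, 918, 317 and 623 in libraries 1 to 6) against 78.6 in the small pre-B cells (45.2 to 207) and Runx2 as the highest. Of the 7 tested, Runx2 was called lower in the small pre-B cells and the median was -3.91. The part of such cells in the lower genes of this comparison, such as Tcf4, Bcl11a, Flt3 and Mzb1, was not tested.

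Of 18 tested genes of the IL-7 pathway and early surface proteins, Il2ra, Cd2 and Ly6d were higher and Stat5a, Stat5b, Socs2, Flt3 and Spn lower, with a median of 0.01 that was -0.26 as a mean of CPM per cell and -0.32 without cells with at least 10 UMIs of S100a8 and S100a9. Il2ra stood at 267 against 34.0 CPM and Cd2, which encodes an adhesion receptor, at 315 (239 to 484) against 17.9 (6.26 to 25.5). Il7r was 1.33-fold higher, short of the limit. Among 13 receptor signaling genes Syk, Blk, Cd22 and Cd72 were higher and Vpreb2 was lower, with 0 of 8576070 UMIs in the small pre-B cells. Vpreb2 is a near-identical copy of Vpreb1, which the rule used. The median of these genes was 0.24, also with Vpreb2 set to its limit. None of the 11 tested recombination genes passed in either direction (median -0.06, and 0.07 with TMM factors).

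The genes with the largest ratios toward the small pre-B cells were Reln, Iglc1, Iglc2, Bhlhe41, Gm43388, Col5a3, Cd2, Col25a1, Lipc and Iglc3. Toward the surrogate light chain cells they were Arpp21, Vpreb2, Mmrn1, Eng, 2010300C02Rik, Pcp4l1, Myl10, Dlg2, A630023P12Rik and Auts2. Arpp21, which encodes an RNA-binding phosphoprotein, had 8 UMIs in the small pre-B cells (0.933 CPM) against 445 CPM (405 to 651). Eng, which encodes the TGF-β coreceptor endoglin, stood at 4.08 against 247 CPM. Of 13 trafficking genes, Cxcr4, Ccr7 and Cnr2 were higher and the integrin genes Itga4 and Itgal lower (median -0.48). Cxcr4, the receptor for the CXCL12 that holds precursors in the marrow, stood at 355 CPM (259.5 to 433) against 155 (117 to 213). Of 14 cycle arrest genes, Btg1 was higher and Ccnd2 and Bcl6 lower (median 0.11), and of 9 cell cycle genes Mcm6 was lower (median -0.52). Ighd, Fcrla and Fcmr were higher among 12 mature B cell genes (median 0.29), and of 4 plasma cell genes Sdc1 was higher and Mzb1 lower (median 0.50).

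The third comparison set the small pre-B cells against Ms4a1 B cells. Of 6840 genes, 1337 (19.5%) passed, 776 (11.3%) of them higher and 561 (8.20%) lower in the small pre-B cells. Without cells that held at least 10 UMIs of S100a8 and S100a9 the counts were 671 and 481. With TMM factors they were 660 and 635, which is nearly level. Of 15 tested genes of mature B cells, 13 were lower in the small pre-B cells and Fcrla was higher, with a median log2 difference of -2.83 against 0.16 over all genes tested. Cd74, the invariant chain of MHC class II, stood at 961 CPM (597 to 2109.5) against 6849 (5779.7 to 8864). H2-Aa, an MHC class II chain, stood at 191 (101 to 704) against 2271 (1786 to 2962). Fcer2a, which encodes CD23, stood at 3.85 (0 to 5.80) against 178 (141 to 218). The libraries did not overlap for these genes. Ighd, the constant region of IgD, was 3.65-fold lower, and Fcrla, which encodes an intracellular Fc receptor-like protein, stood at 729 against 226 CPM.

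Of 25 tested transcription factors, 15 were higher in the small pre-B cells and none was lower, with a median of 1.15. Without cells with at least 10 UMIs of S100a8 and S100a9, 11 were higher and 1 lower (median 0.86), and as a mean of CPM per cell 12 and 1 (median 0.93). The 15 genes were Ebf1, Pax5, Tcf3, Foxo1, Ikzf1, Ikzf3, Irf4, Bach2, Spib, Lef1, Sox4, Myb, Erg, Pou2af1 and Id3. Sox4 stood at 1052 CPM (433 to 1197) against 22.7 (2.29 to 41.2), and Pax5, which keeps B cell identity, differed 2.13-fold. Of 12 tested recombination genes, Rag2, Hmgb1, Xrcc6 and Lig4 were higher and none was lower, with a median of 0.34, also with Rag2 set to its limit, and 3 were higher and 1 lower without cells with at least 10 UMIs of S100a8 and S100a9 (median 0.21). Of 13 IL-7 and surface genes, 7 were higher (Il7r, Il2ra, Cd2, Cd24a, Cd93, Bst1 and Ly6d) and Il2rg and Cd9 lower (median 1.09). Without cells with at least 10 UMIs of S100a8 and S100a9, 5 of 14 were higher and 1 lower (median 0.45). Il7r stood at 529 CPM (456 to 655) against 15.3 (0 to 29.1). Il7r and Sox4 thus stood far above their levels in Ms4a1 B cells, with libraries that did not overlap. Of the 4 given markers outside the rule, Reln, Akap12 and Bach2 were higher against cycling cells (median 1.11), Reln, Cecr2 and Bach2 against surrogate light chain cells (median 1.58) and all 4 against Ms4a1 B cells (median 4.37).

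Of 13 trafficking genes, 5 were lower, among them Cxcr5, Itgb7 and Gpr183, and none was higher, with a median of -0.81. Cxcr5, the receptor that leads B cells into follicles, stood at 19.4 CPM (4.99 to 33.9) against 219 (189.6 to 307). Of 12 receptor signaling genes, Syk, Blnk, Slamf6 and Cd72 were higher and Ptpn6 and Cd22 lower (median 0.43). Of 14 cycle arrest genes, Cdkn1b, Ccng2, Ccnd3 and Foxo3 were higher and Ccnd2 lower (median 0.65), Stmn1 was the 1 higher of 7 cell cycle genes (median 0.25), and Sdc1 the 1 higher of 5 plasma cell genes (median 0.91). As a mean of CPM per cell, none of the cell cycle genes and 3 of the plasma cell genes were higher. The genes with the largest ratios toward the small pre-B cells were Gfra1, Gm32569, Atp1b1, Reln, Grip1, B230118H07Rik, Tmem132e, Uchl1, Rbm24 and Col5a3. B230118H07Rik overlaps Rag1, which the rules asked for in the small pre-B cells and at 0 in Ms4a1 B cells, so its ratio is not independent of them. Toward the Ms4a1 B cells they were Ccr6, Fcer2a, Cr2, Klf12, Gm16341, Gpr174, Setbp1, Rapgef4, St6galnac3 and Bcl2a1b. Gfra1, which encodes a receptor for GDNF, stood at 480.3 CPM (338 to 580.4) against 2.27 (0 to 4.59), and at 899.6 in surrogate light chain cells.

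**Figure D3:**
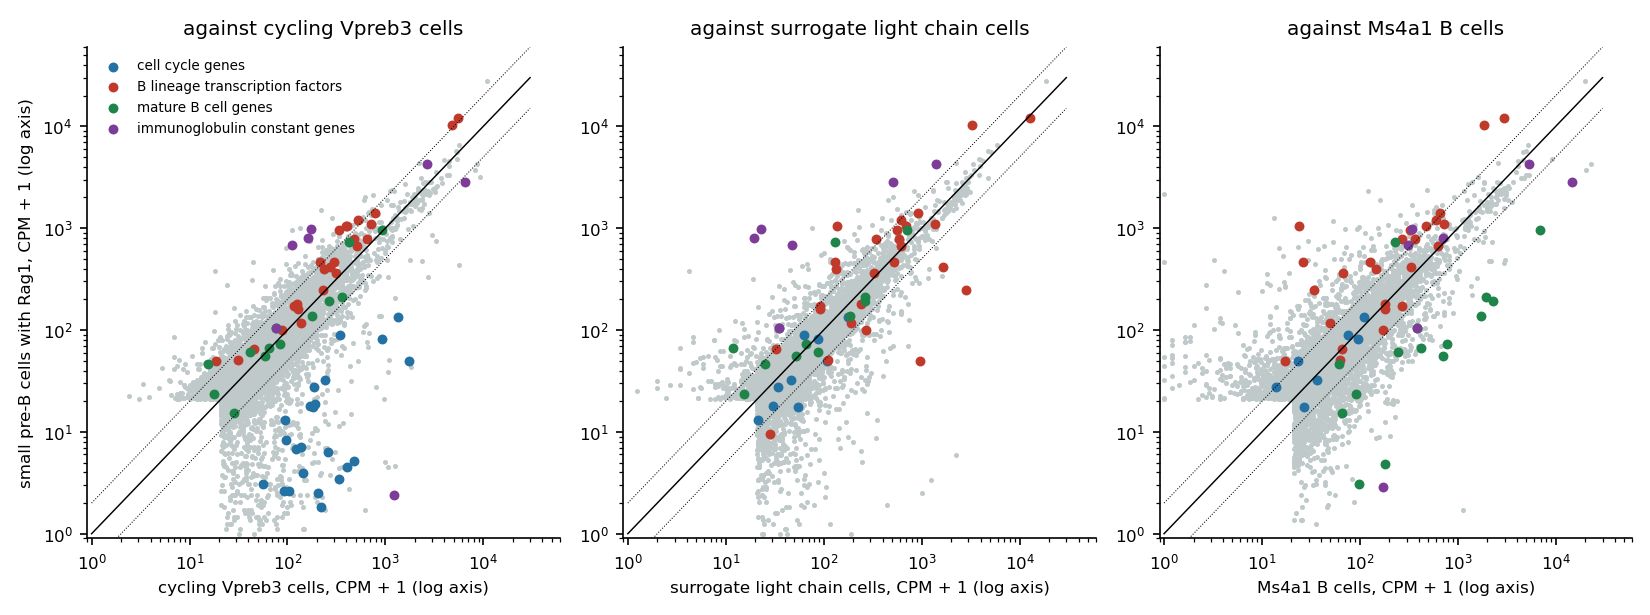
Pooled level of each tested gene in the small pre-B cells (vertical, CPM + 1, log axis) against cycling Vpreb3 cells, surrogate light chain cells and Ms4a1 B cells (horizontal, CPM + 1, log axis). Colored points are gene lists without the genes of the rule, the solid line marks equal levels and the dotted lines mark 2-fold. All 23 cell cycle genes lie below the line against cycling cells.

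Among survival genes, the small pre-B cells were at opposite ends for Bcl2 and Bcl2l1. Bcl2, which protects mature lymphocytes, was lowest in the small pre-B cells, at 11.4 CPM and at 8.75, 15.3, 6.65, 13.2, 6.16 and 9.71 in libraries 1 to 6. It stood at 24.7 CPM in surrogate light chain cells, 46.8 in cycling cells, 70.0 in Vpreb3 cells without Rag1 and 181 in Ms4a1 B cells. Bcl2l1, which encodes the related survival protein Bcl-xL, was highest in the small pre-B cells, at 265 CPM and at 232, 280.0, 269.5, 226, 270.2 and 245 in libraries 1 to 6. The other populations held 68.8, 129, 102 and 33.7 CPM in the same order. The libraries of the small pre-B cells did not overlap with those of any other population for Bcl2l1, and for Bcl2 they overlapped with those of surrogate light chain cells. Bmf, which encodes a protein that promotes cell death, stood at 97.1 CPM (64.9 to 110.4) and was 5.57-fold above cycling cells and 5.12-fold above Ms4a1 B cells. Of the tested survival and death genes, 2 of 11 were higher and 1 lower against cycling cells (median 0.55, with 1 higher and 1 lower as a mean of CPM per cell), 2 and 1 of 11 against surrogate light chain cells (median 0.25, with 2 higher and none lower of 10 as a mean of CPM per cell and 3 higher and none lower with TMM factors), and 3 and 2 of 12 against Ms4a1 B cells (median 0.15, and -0.07 with TMM factors).

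The 16 mature B cell genes summed to 11586 CPM in Vpreb3 cells without Rag1 (7820 to 14757 in the libraries). In the small pre-B cells they summed to 2806 CPM (2144 to 5319), and Cd74 was the highest gene in both. Genes were not called between these populations. Ms4a1 stood at 949 against 135 CPM and Cd74 at 5428 (3443 to 7101) against 961 (597 to 2109.5). The trafficking gene Cxcr5 stood at 125 against 19.4. Il7r stood at 161 CPM there against 529. Other genes did not separate these cells. Ikzf3 stood at 1042 against 1039.9 CPM, Spib at 472 against 462 and Btg1 at 2085 against 2099.6, with overlapping libraries.

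Light chain transcripts were counted cell by cell, because the light chain genes are joined at this stage. A UMI of Igkc, the kappa constant gene, was found in 85.1% of the small pre-B cells (Wilson interval 83.1% to 86.8%) and a UMI of Iglc1, Iglc2 or Iglc3, the lambda constant genes, in 76.3% (74.0% to 78.4%). Neutrophils do not make light chains. Cells rich in S100a8 and S100a9 and outside the populations held one in 1.98% and 1.79%. Cells of the Cd79 populations were left out of this set, so these shares are not a full background. At 3000 UMIs per cell the shares for Igkc were 82.9% in the small pre-B cells, 27.8% in surrogate light chain cells, 88.8% in cycling cells, 92.7% in Vpreb3 cells without Rag1 and 92.3% in Ms4a1 B cells. For the Iglc genes they were 68.3%, 8.28%, 21.3%, 79.9% and 82.1% in the same order. Cycling cells thus stood near the small pre-B cells for kappa and far below them for lambda.

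The level of Igkc was 2812 CPM in the small pre-B cells (2042 to 3851, median 2657), with a median of 11 UMIs per cell and at most 120. Single cells held up to 13228 Igkc UMIs among cycling cells and 18573 among Ms4a1 B cells, so pooled Igkc levels are not compared with these. A UMI of any of 68 Igkv genes was found in 53.5% of the small pre-B cells and of any of 3 Iglv genes in 18.3%. Cells rich in S100a8 and S100a9 and outside the populations held one in 0.465% and 0.155%. At 3000 UMIs per cell the shares of the small pre-B cells were 41.0% and 11.9%, against 31.9% and 8.59% in Vpreb3 cells without Rag1, 19.1% and 2.68% in cycling cells and 15.8% and 2.95% in Ms4a1 B cells. At this depth the shares of the small pre-B cells were the highest of these, and those of Vpreb3 cells without Rag1 came nearest. With at least 3 UMIs and no thinning, the shares of the small pre-B cells were 16.8% and 1.04%. They were 11.3% and 1.11% in Vpreb3 cells without Rag1 and 14.3% and 1.42% in cycling cells. Whether such a transcript comes from a joined or an unjoined V gene cannot be read from counts per gene.

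With at least 3 UMIs as the limit, 40.9% of the small pre-B cells held both kappa and lambda transcripts, 37.6% kappa alone, 18.2% lambda alone and 3.26% neither. In cycling cells 74.3% held kappa alone and 18.6% both, and in Ms4a1 B cells 68.7% held both. More lambda than kappa UMIs were counted in 35.5% of the small pre-B cells (30.0% to 42.7% in the libraries). This share was 18.3% in Vpreb3 cells without Rag1 (16.7% to 24.5%), 13.9% in Ms4a1 B cells (8.54% to 17.9%), 5.44% in surrogate light chain cells (0% to 10.3%) and 5.04% in cycling cells (4.02% to 8.11%). No library of another population reached the lowest library of the small pre-B cells. The share compares UMIs of different genes in the same cell and is not a share of cells with a lambda receptor.

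**Figure D4:**
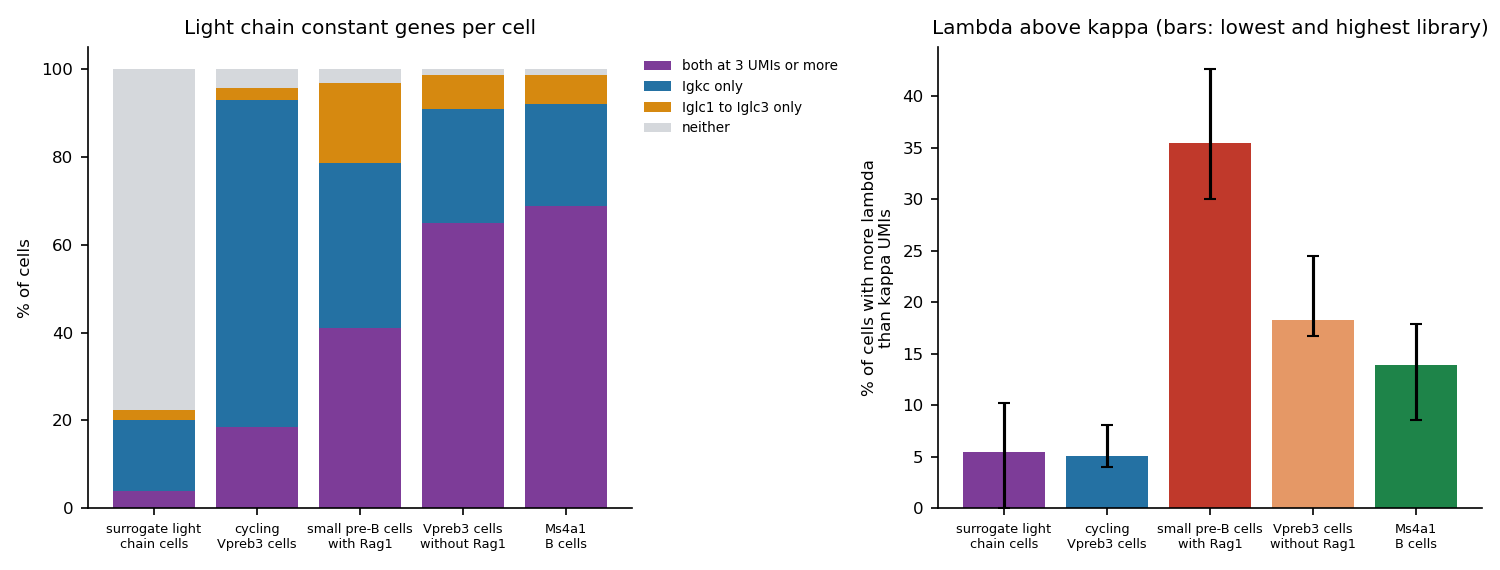
Left, percentage of cells of each population with at least 3 UMIs of Igkc, of Iglc1 to Iglc3, of both or of neither. Right, percentage of cells with more lambda than kappa UMIs, with lines from the lowest to the highest of 6 libraries. The small pre-B cells stand at 35.5%, above the other 4 populations.

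The small pre-B cells were split by Ms4a1. Of the 1441 cells, 297 (20.6%, and 14.4% to 25.3% in the libraries) held at least 1 UMI of Ms4a1, and 1144 held none. In cells thinned to 3000 UMIs, 16.1% held one. A background share of Ms4a1 is not given here, so these sets stand for UMI counts and not for cells shown to express Ms4a1. Both sets had nearly the same depth, with medians of 5118 and 5112 UMIs per cell. Of 6487 genes, 65 (1.00%) passed the same rule, 52 (0.802%) of them higher and 13 (0.200%) lower in the cells with Ms4a1. Ms4a1 itself is among the higher genes, and the split fixed its call. Of 13 tested genes of mature B cells, 6 were higher and none was lower, with a median log2 difference of 1.20 against 0.00 over all genes. None of 11 recombination genes passed (median -0.21).

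Cd74 stood at 1939 CPM in small pre-B cells with Ms4a1 (914 to 5381 in the libraries) and at 688 in those without (366 to 1481). Bank1, which encodes a scaffold of B cell receptor signaling, stood at 597 against 94.4 CPM, Btla, which encodes an inhibitory receptor, at 159 against 33.9, and Cxcr5 at 54.5 against 9.54. Bank1, Btla, Ezh2 and Fn1 are named here after their values were seen. Iglc1 stood at 1721 against 761 CPM, while Igkc stood at 3367 against 2657 and did not reach 2-fold. Of the cells with Ms4a1, 57.2% had more lambda than kappa UMIs, against 29.8% of those without. The lambda genes thus differed across this split and the kappa gene differed less. Among the lower genes, Ezh2, a histone methyltransferase, stood at 162 against 372 CPM, and Fn1, encoding fibronectin, at 11.2 against 70.8. The neutrophil list (median log2 difference -1.11, none of 10 called) and the monocyte list (-0.88, none of 8 called) had negative medians in the cells with Ms4a1, and their part in these values was not tested.

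The 4 given markers outside the rule did not reach 2-fold across this split. Reln stood at 337 CPM in cells with Ms4a1 and 387 in those without, Bach2 at 8731 against 10852 and Akap12 at 1072 against 1204. Cecr2 stood at 1705 against 2489 CPM, a 1.46-fold difference. Rag1 stood at 442 against 469 CPM, but the rule asked for Rag1 in every cell of both sets.

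**Figure D5:**
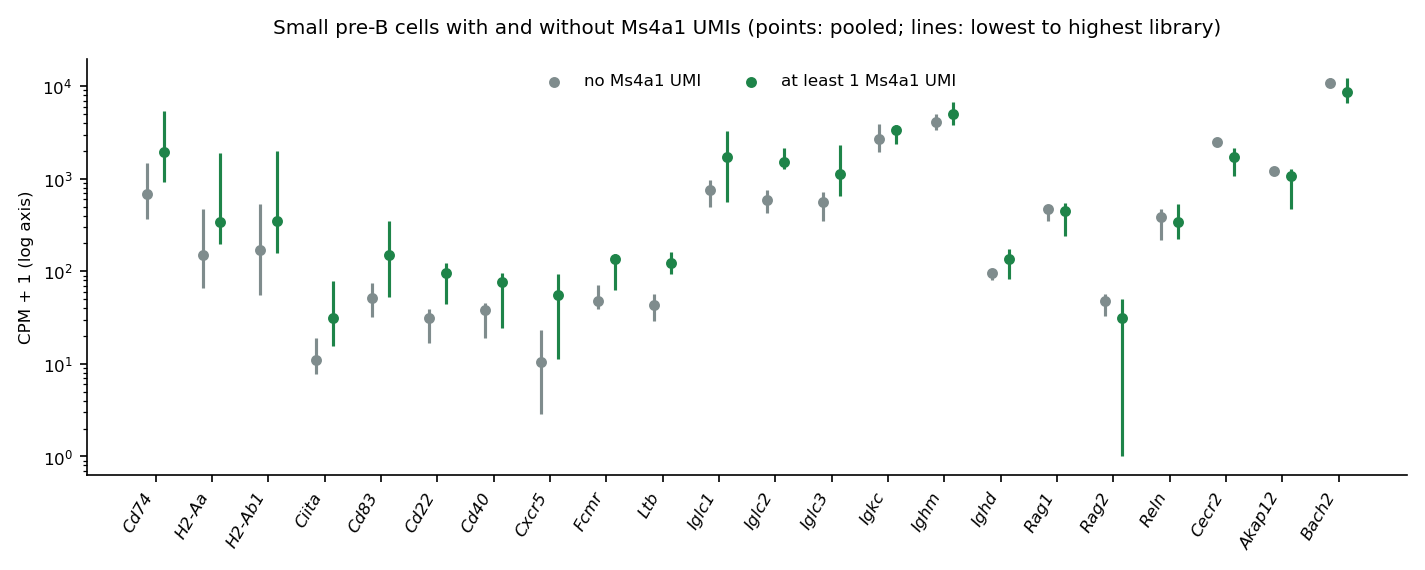
Level (CPM + 1, log axis) of genes in small pre-B cells with at least 1 Ms4a1 UMI (297 cells) and with none (1144 cells). Points are pooled levels and lines run from the lowest to the highest of 6 libraries. Cd74 stands at 1939 against 688 CPM, and Reln at 337 against 387 CPM.

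A second split was made by the number of Rag1 UMIs, which gave 485 cells with 1, 331 with 2 and 625 with at least 3. Their median depths were 4875, 5075 and 5241 UMIs per cell. Rag2 stood at 31.9, 44.9 and 50.1 CPM and Reln at 268, 418 and 435 CPM in this order, and neither reached 2-fold between the cells with at least 3 and with 1. Of 6449 genes, 6 (0.0930%) passed, 3 (0.0465%) of them higher and 3 lower in cells with at least 3 Rag1 UMIs. The higher genes were Gm26772 and Abhd17c, and the lower genes were Dgat1, Cxcl2 and S100a9, all named after their values were seen. Rag1 itself was the remaining higher gene, and the split fixed its call. The neutrophil list had a median log2 difference of -3.05 in this split, with 1 of 8 genes called lower, and the monocyte list one of -1.15 with none of 10 called, and their part was not tested. More lambda than kappa UMIs were counted in 43.0% of the cells with at least 3 Rag1 UMIs, 28.7% of those with 2 and 30.3% of those with 1.

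Genes of other cell types were measured in the same cells. All 10 listed neutrophil genes were found in the small pre-B cells, with a sum of 9854 CPM (45.2 to 24424 in the libraries, median 10483) and S100a9 as the highest (4214 CPM). Of the small pre-B cells, 33 (2.29%) held at least 10 UMIs of S100a8 and S100a9 and carried 99.5% of the UMIs of both genes, while 88.1% held none. These 33 cells had a median of 12183 UMIs, against 5093.5 in the rest, and without them the sum was 136 CPM. Among Ms4a1 B cells 67 (12.1%) and among cycling cells 34 (5.35%) were of this kind, and the sums were 54450 and 22854 CPM. Of the 10 neutrophil genes, S100a8, S100a9 and Retnlg were lower against Ms4a1 B cells (median -2.46), Mpo against cycling cells (median -1.38) and none against surrogate light chain cells (median -0.05). Without cells with at least 10 UMIs of S100a8 and S100a9, 3 of these genes were tested, none was called against Ms4a1 B cells (median -0.01), and 1 was higher and none lower against cycling cells (median -1.49) and against surrogate light chain cells (median -1.11).

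All 10 monocyte and macrophage genes were found, with a sum of 1073 CPM (58.4 to 2616) and Lyz2 as the highest, and Ly6c2 was lower against cycling cells. The median log2 differences of this list were -0.22 against cycling cells, -0.33 against surrogate light chain cells and -1.25 against Ms4a1 B cells. Without cells with at least 10 UMIs of S100a8 and S100a9 they were -0.59, 0.10 and -0.91 in the same order, and Ly6c2 was no longer called. As a mean of CPM per cell, 2 of 5 were lower against cycling cells (median -1.36) and 1 of 4 against surrogate light chain cells (median -0.48). Of 10 genes of T cells and thymocytes, which also use Rag1, 9 were found with a sum of 7.93 CPM (1.46 to 68.2), Trac was the highest at 1.52 CPM and Cd8b1 was at 0. The sums were 18.3 CPM for 6 of 6 NK cell genes (highest Nkg7), 78.6 for 7 of 8 plasmacytoid dendritic cell genes (highest Cox6a2, Klk1 at 0), 35.9 for 7 of 8 erythroid genes (highest Car2, Hba-a2 at 0) and 39.3 for 6 of 6 stem and progenitor genes (highest Meis1). They were 0.816 for 3 of 6 mast cell and basophil genes (highest Cpa3, with Mcpt4, Ms4a2 and Tpsb2 at 0) and 2.45 for 5 of 6 fibroblast genes (highest Dcn, Lum at 0). Genes of T cells, mast cells and fibroblasts were thus near 0. Of the smaller lists, Cox6a2, Car2 and Meis1 were higher and Pacsin1 lower against Ms4a1 B cells, Cox6a2 was higher against cycling cells, and Runx2, Car2 and Meis1 were lower against surrogate light chain cells. Without cells with at least 10 UMIs of S100a8 and S100a9, Meis1 was not called against Ms4a1 B cells, although its log2 difference was 1.89.

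The 7 plasma cell genes summed to 489 CPM, of which Mzb1, also used by B cell precursors, gave 369. Jchain, which marks antibody-secreting cells, had 6 UMIs in all small pre-B cells. Cycling Vpreb3 cells, Vpreb3 cells without Rag1 and Ms4a1 B cells held single cells with up to 2204, 2617 and 1689 Jchain UMIs. Without cells that held any Jchain UMI, 1240 genes passed against cycling cells and 1287 against Ms4a1 B cells. Beyond these counts, the part of other cell types in the results was not tested.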

How the data were processed

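CD45+ cells from digested joints of 6 samples were profiled with the Chromium 3′ version 3.1 kit. The deposited file holds UMI counts of 20394 genes in 32953 cells, which the authors made with Cell Ranger 7.0.0 on mm10 and, per the study's methods, SoupX 1.6.2, DoubletFinder 2.0.3 and Seurat 4.3.0. All cells lie within the stated limits of 200 to 7000 genes and 10% mitochondrial counts, so no cell was removed here. Whether introns were counted is not given in the sources used here.

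Populations were defined by raw UMIs, and UMIs were summed per population and library and divided by the population's total (CPM). The split of samples into PBS and PEPITEM could not be joined to the barcodes, so no test was run. Genes were called at 2-fold after adding 1 CPM, at least 20 CPM and the same sign in 6 libraries. Named genes were all genes of 21 lists, the 10 called genes with the largest ratio in each direction, without genes of the rules and V, D and J segments, and, also without genes of the rule, the 20 with the largest fold over all other cells. The cells, lists and rules were chosen with earlier results of these data known. Shares were recomputed in cells thinned to 3000 UMIs, and intervals are Wilson 95%. The depth of a population sets the precision of its levels, and small pre-B cells held 8576070 UMIs. Alternatives were other limits, floors, folds, pseudocounts and TMM factors. The scripts were tested on simulated data. Python 3.11.15, numpy 2.4.6, scipy 1.17.1, pandas 2.3.3, R 4.3.3 and edgeR 4.0.16 (TMM factors alone) were used. Sequences are from RefSeq and gene coordinates from GRCm38. The values of 1 listed gene are not reported here.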

Additional observations from a re-analysis of the deposited data

How the results depend on the processing

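The share of small pre-B cells (4.37%) was 2.90% with at least 2 Rag1 UMIs, 3.49% in cells thinned to 3000 UMIs, 3.25% as the median over libraries and 8.12% without cells with at least 10 UMIs of S100a8 and S100a9, a setting added after seeing the data that also shrinks the total. Leaving out 1 library gave 3.18% (without library 2) to 4.78%. The median depth of 5116 UMIs was 5376.5 without a Rag1 minimum and 4728 to 5407.5 with 1 library left out. At 3-fold, 583 genes passed against cycling cells, 450 against surrogate light chain cells and 717 against Ms4a1 B cells. At a floor of 50 CPM, 535 passed against surrogate light chain cells and 889 against Ms4a1 B cells. With 1 library left out, 1236 to 1341, 828 to 933 and 1226 to 1426 genes passed. In cells thinned to 3000 UMIs, 82.9% held Igkc, 68.3% an Iglc gene, 41.0% an Igkv gene, 11.9% an Iglv gene and, added after seeing the data, 16.1% Ms4a1. With at least 3 UMIs the first 4 shares were 78.6%, 59.1%, 16.8% and 1.04%. With 1 library left out they were 84.6% to 85.5%, 73.2% to 78.2%, 49.8% to 56.1% and 17.2% to 18.8%. Fewer cells, UMIs or genes pass a stricter limit by construction, and other causes were not tested. Values under the alternatives were counted for the genes named for the largest ratios and the 4 given markers outside the rule. Of these values, 1066 kept their side of the setting's own limits, 12 lost it, 3 gained it and 0 reversed. Most of these genes were picked for large ratios, so these counts were largely set in advance and support nothing. Of the 12, all but 1 stayed past 2-fold and lost only the floor of 50 CPM or the 3-fold limit. Akap12 fell below 2-fold against cycling cells as a mean of CPM per cell (log2 0.93) and passed 2-fold against surrogate light chain cells with TMM factors (1.05), with at least 2 Rag1 UMIs (1.01) and without library 6 (1.00). Of the list genes called against cycling, surrogate light chain and Ms4a1 B cells (64, 51 and 77), 56, 49 and 70 kept their call as a mean of CPM per cell, 61, 46 and 75 with TMM factors, 39, 29 and 50 at 3-fold, and 59, 51 and 63 without cells with at least 10 UMIs of S100a8 and S100a9. In that last setting S100a9 and Retnlg changed sign against Ms4a1 B cells, and neither was called there. No paired analysis was possible because the barcodes do not carry the replicate numbers of the labels. The populations share the 6 libraries, but no paired test across libraries was run, since measured values chose the populations. Depth limits the reading of genes near 1 UMI per cell, such as Rag1.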
